A study of Mus musculus with 6 samples.

Results

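The 7 subunits of respiratory complex I that are encoded by mitochondrial DNA, mt-Nd1, mt-Nd2, mt-Nd3, mt-Nd4l, mt-Nd4, mt-Nd5 and mt-Nd6, were examined in embryonic mouse hearts with and without a cardiomyocyte deletion of Mrps5. They were taken by gene symbol from a table of 26191 genes and are 7 of the 13 mitochondrial mRNAs in it. Each had 1 transcript row, and all 7 passed the filter on low values. Whole hearts were collected at embryonic day 12 from littermates of a cross of Mrps5 fl/+; cTNT-Cre with Mrps5 fl/fl mice. The control group (Ctrl, n = 3) was Mrps5 fl/fl without Cre, so its embryos also carried both floxed alleles. The mutant group (cKO, n = 3) was Mrps5 fl/fl; cTNT-Cre. The Cre is driven by the cardiac troponin T promoter and acts in cardiomyocytes, while the endothelial, epicardial, mesenchymal and blood cells of the same hearts keep an intact gene. Each replicate held several hearts according to the study. In such bulk RNA, fewer cells of a type and less RNA per cell cannot be told apart.

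Complex I oxidises NADH, passes the electrons to ubiquinone and pumps protons across the inner mitochondrial membrane, and in heart muscle it is the main entry point of electrons from fuel oxidation. Its membrane arm is built around the mitochondrially encoded subunits, which are made on mitochondrial ribosomes, whereas all other subunits are encoded in the nucleus and imported. Mrps5 encodes a protein of the small subunit of the mitochondrial ribosome. Mitochondrial DNA is transcribed from both strands into long precursors, from which mRNAs are released mostly by excision of the tRNAs between them. mt-Nd6 is the mRNA read from the opposite strand to all the others.

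In the GENCODE M21 annotation of GRCm38, the genes lie on the mitochondrial chromosome at positions 2751-3707 (mt-Nd1), 3914-4951 (mt-Nd2), 9459-9806 (mt-Nd3), 9877-10173 (mt-Nd4l), 10167-11544 (mt-Nd4) and 11742-13565 (mt-Nd5) of the plus strand, and at 13552-14070 (mt-Nd6) of the minus strand. None has an intron. Their lengths run from 297 nt for mt-Nd4l to 1824 nt for mt-Nd5, and their GC content from 33.0% in mt-Nd3 to 41.1% in mt-Nd4l. mt-Nd6 stands apart in base composition, with 28.1% G and 5.97% C, whereas in the 6 mRNAs of the other strand G made up 8.0% to 11.6% and C 22.1% to 30.0%. The deposited table gives no coordinates, and the submitters' processing notes name the build mm9.

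Adjacent members share bases at 2 places. mt-Nd4l and mt-Nd4 overlap by 7 nt on the same strand and are kept together on 1 mRNA. mt-Nd5 and mt-Nd6 overlap by 14 nt on opposite strands. The whole mt-Nd4l mRNA is shown because its values differed most between the genotypes, followed by the first 60 bases of mt-Nd4 and the ends of mt-Nd5 and mt-Nd6. Capitals mark the shared bases, and all are given 5′ to 3′ from the GENCODE M21 transcripts.
mt-Nd4l (1 to 297): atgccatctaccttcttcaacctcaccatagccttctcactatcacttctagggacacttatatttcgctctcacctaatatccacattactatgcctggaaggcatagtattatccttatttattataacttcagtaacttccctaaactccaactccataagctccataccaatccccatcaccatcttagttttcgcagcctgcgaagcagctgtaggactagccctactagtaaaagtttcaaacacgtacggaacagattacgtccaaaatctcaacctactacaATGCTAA
mt-Nd4 (1 to 60): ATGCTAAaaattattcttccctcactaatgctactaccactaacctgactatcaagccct
mt-Nd5 (1765 to 1824): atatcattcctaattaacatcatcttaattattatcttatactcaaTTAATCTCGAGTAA
mt-Nd6 (460 to 519): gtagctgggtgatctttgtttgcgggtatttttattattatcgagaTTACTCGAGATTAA

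The shared bases of mt-Nd4l hold its stop codon and the start codon of mt-Nd4. The capitals of mt-Nd6 are the reverse complement of those of mt-Nd5, so a fragment from this stretch can be assigned to 1 of these genes only with its strand. The libraries were made with a directional kit, but whether strand was used in the quantification is not given in the sources used here. Without it, reads of any member could not be told from antisense precursor RNA of the other strand.

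Some members also have close copies in the nuclear genome. The best match of mt-Nd4l among the GENCODE M21 transcripts of nuclear genes was Gm10222 (chr1:24612407-24612700, minus strand), identical over 294 of its 297 nt. For mt-Nd4 it was Gm28439 (chr1:24611535-24612410, minus strand), identical over 876 nt or 63.6% of the mRNA. mt-Nd3 matched Gm28438 (chr1:24612775-24613119, minus strand) with 1 difference in 345 nt. The best match of mt-Nd2, Gm13339 (chr2:22590024-22590533, minus strand), had 17 differences in 510 nt, and that of mt-Nd1 was only 76.6% identical. mt-Nd5 and mt-Nd6 reached 92.3% and 93.6%. Windows of 60 bases, chosen to hold differences, show how far a short read could at best separate mt-Nd3 and mt-Nd2 from these copies. The differing bases are in capitals.
mt-Nd3 (1 to 60): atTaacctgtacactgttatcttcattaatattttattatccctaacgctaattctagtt
Gm28438: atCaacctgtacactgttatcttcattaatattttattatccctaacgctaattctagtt
mt-Nd2 (667 to 726): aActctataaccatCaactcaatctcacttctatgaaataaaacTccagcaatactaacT
Gm13339: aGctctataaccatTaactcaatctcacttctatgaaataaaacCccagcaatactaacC

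The single difference of mt-Nd3 is T3C, counted from 1 at the first base of the mRNA, with the mitochondrial base first. The mt-Nd2 window holds 4 differences, and no other window of this size held more. The longest stretch identical to the copy was 342 nt for mt-Nd3 and 129 nt for mt-Nd2. None of these copies is listed in the expression table, and how reads that fit both places were assigned is not given in the sources used here. Levels of mt-Nd3, mt-Nd4l and mt-Nd4 are therefore uncertain to that extent. Reads from identical stretches of mt-Nd2 could also fit both places.

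Several properties of the libraries bear on all values below. FPKM, the fragments of a transcript divided by its length and by all mapped fragments of the library, is a relative unit, and the number of fragments behind each value is unknown. Mrps5 was at 9.65, 11.4 and 10.4 FPKM in Ctrl replicates 1 to 3 and at 5.28, 7.41 and 10.4 FPKM in the cKO libraries, so that the library labelled cKO replicate 3 was at the control level (log2 fold change -0.44, SE 0.19, adjusted p = 0.338 by limma). Globin and other erythroid genes made up 12.0% to 13.3% of the summed FPKM in Ctrl and 23.5%, 10.8% and 22.0% in cKO replicates 1 to 3. Of 13 erythroid genes tested, 12 had a higher log2 mean in cKO, and none was at 0 in any library. The 16 cardiomyocyte genes made up 2.68% to 3.21% of the FPKM in Ctrl and 2.13% to 2.64% in cKO, with 15 of 16 lower, among them Tnnt2, which encodes cardiac troponin T (log2 fold change -0.60, adjusted p = 0.0952 by limma). All 16 were detected in every library. The median log2 fold change was 0.66 for the erythroid and -0.31 for the cardiomyocyte list. For the endothelial (6 genes), epicardial and mesenchymal (7 genes) and liver lists (4 genes) it was -0.07, -0.03 and 0.24. The mean log2 level of the cardiomyocyte genes was 8.93 to 9.15 in Ctrl and 8.72 to 8.90 in cKO, without overlap. A fit with this level as a covariate therefore cannot tell genotype from cardiomyocyte level. The part of these differences in the results was not tested, and the fits with a covariate are given as a description.

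**Figure D1:**
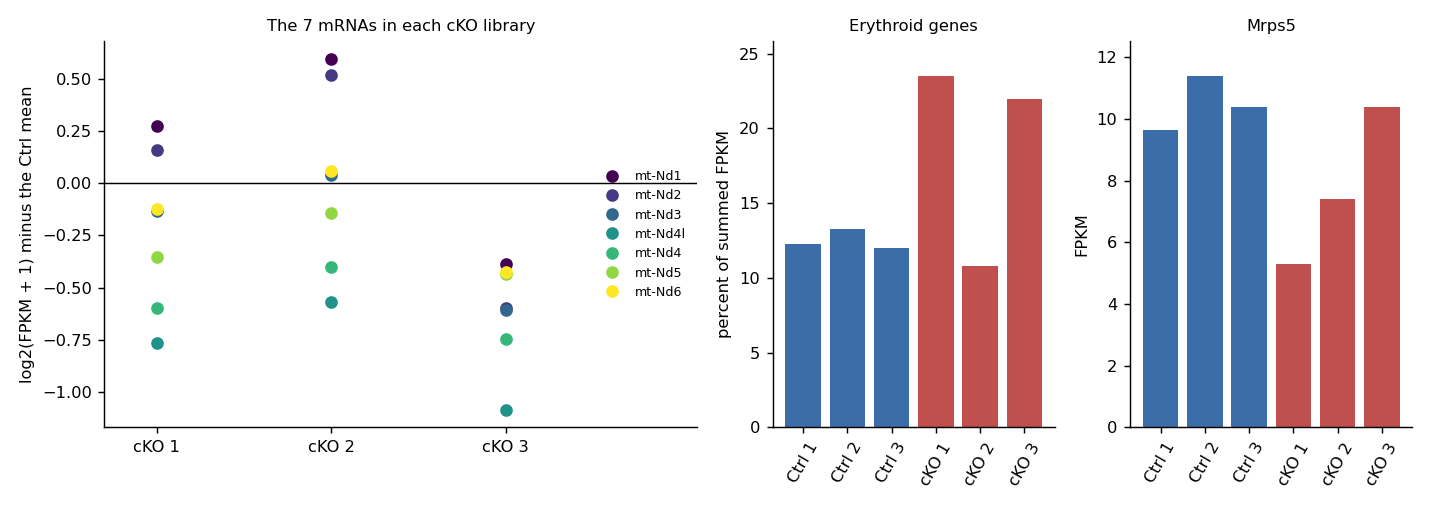
Left, log2(FPKM + 1) of each of the 7 mRNAs in each cKO library minus the mean of the 3 Ctrl libraries. Middle and right, percent of summed FPKM in erythroid genes and FPKM of Mrps5 in each library (blue, Ctrl; red, cKO). All 7 mRNAs were highest in cKO replicate 2, the cKO library with 10.8% erythroid signal, and lowest in the library labelled cKO replicate 3, where Mrps5 was at 10.4 FPKM.

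Of the 7 mRNAs, 5 had lower and 2 higher mean log2 levels in cKO, although all 7 were lower without cKO replicate 2. They were also all lower with the mean level of the cardiomyocyte genes as a covariate, which itself did not overlap between the groups. mt-Nd4l and mt-Nd4 were lower in all 3 cKO libraries than in any Ctrl library, mt-Nd1 and mt-Nd2 had slightly higher means, and mt-Nd3, mt-Nd5 and mt-Nd6 had lower means with overlapping groups. On the log2(FPKM + 1) scale the median difference was -0.23, beside -0.02 over all 13260 genes tested. An unadjusted p under 0.05 by limma was reached by 2 of 7, both lower, where 9.43% of all genes tested were lower at this threshold and 5.57% higher, 15% in all in either direction. Groups that did not overlap were found for the same 2, where this held for 13% of all genes in the lower direction and for 20.8% in either. After Benjamini-Hochberg adjustment over all genes 0 of 7 passed 0.05 by limma, and 0.083% of all genes did.

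mt-Nd4l encodes a short hydrophobic subunit in the membrane arm. Its FPKM was 4061, 3219 and 3996 in the Ctrl libraries and 2198, 2520 and 1762 in the cKO libraries. Every cKO library lay below the lowest control, and the means were 3759 ± 468 and 2160 ± 381 (SD, n = 3 each), so that the mean decreased by 42.5%. The log2 fold change was -0.81 (SE 0.18, unadjusted p = 0.00223, adjusted p = 0.146 by limma), and -0.67 (adjusted p = 0.139) without the library labelled cKO replicate 3. With the mean level of the erythroid genes as a covariate it was -0.61 (adjusted p = 0.373 by limma). With that of the cardiomyocyte genes it was -0.72, and the unadjusted p was no longer under 0.05 (adjusted p = 0.999 by limma).

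mt-Nd4, which follows on the same mRNA, encodes 1 of the antiporter-like proton-pumping subunits. Its controls were closely grouped at 3998, 3950 and 4137 FPKM, and the cKO libraries stood at 2663, 3054 and 2405. Again every cKO library was below every control, with means of 4029 ± 97.1 and 2707 ± 327 (SD, n = 3 each). The log2 fold change was -0.58 (SE 0.16, unadjusted p = 0.00542, adjusted p = 0.17 by limma), -0.50 without the library labelled cKO replicate 3 and -0.44 with the erythroid covariate. With the cardiomyocyte covariate or with no filter on low values the log2 fold change was -0.62 and -0.58, and the unadjusted p was no longer under 0.05 (adjusted p = 0.999 and 0.445 by limma), while quantile normalization gave a log2 fold change of -0.32. Since mt-Nd4l and mt-Nd4 share an mRNA, their ratio within a library was compared. The log2 ratio of mt-Nd4l to mt-Nd4 was 0.02, -0.30 and -0.05 in Ctrl and -0.28, -0.28 and -0.45 in cKO, groups that overlapped (difference -0.23, exact permutation p = 0.3, two-sided). With 3 libraries against 3 this test cannot go below 0.1.

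mt-Nd1, the subunit that lines much of the ubiquinone-binding site, and mt-Nd2, another antiporter-like subunit, lie side by side upstream of the other members. FPKM of mt-Nd1 was 7851, 8854 and 8305 in Ctrl and 10057, 12575 and 6376 in cKO. cKO replicates 1 and 2 lay above all controls and the library labelled cKO replicate 3 below them, giving a log2 fold change of 0.16 (SE 0.27, adjusted p = 0.823 by limma). mt-Nd2 showed the same arrangement against its control mean, at 2081, 2550 and 2194 FPKM in Ctrl and 2533, 3244 and 1500 in cKO (log2 fold change 0.03, SE 0.27, adjusted p = 0.975 by limma), although cKO replicate 1 stayed within the control range. Without the library labelled cKO replicate 3 the log2 fold changes were 0.43 for mt-Nd1 and 0.34 for mt-Nd2 (adjusted p = 0.419 and 0.445 by limma). Without cKO replicate 2 they were -0.06 and -0.22, so the sign of both depended on that library. The cardiomyocyte covariate gave -0.27 and -0.55, the erythroid covariate 0.49 and 0.39, and scaling to the same sum put mt-Nd2 at -0.057.

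The remaining 3 members had overlapping groups. mt-Nd3, whose subunit carries a flexible loop near the quinone site, was at 3318, 2624 and 3743 FPKM in Ctrl and 2913, 3280 and 2100 in cKO (log2 fold change -0.23, SE 0.22, adjusted p = 0.656 by limma). mt-Nd5, the antiporter-like subunit at the far end of the membrane arm, was at 2516, 3128 and 2392 FPKM in Ctrl and 2085, 2407 and 1969 in cKO (log2 fold change -0.31, SE 0.16, adjusted p = 0.414 by limma). Here cKO replicate 2 just exceeded the lowest control and the other cKO libraries were below all controls. mt-Nd6, on the opposite strand, was at 2472, 3366 and 1985 FPKM in Ctrl and 2337, 2654 and 1896 in cKO (log2 fold change -0.16, SE 0.22, adjusted p = 0.776 by limma). Without the library labelled cKO replicate 3 the log2 fold changes of mt-Nd3, mt-Nd5 and mt-Nd6 were -0.05, -0.25 and -0.03. Leaving out each library in turn gave -0.37 to -0.05 for mt-Nd3, -0.39 to -0.19 for mt-Nd5 (-0.19 without Ctrl replicate 2) and -0.34 to 0.038 for mt-Nd6 (0.038 without Ctrl replicate 2). mt-Nd3 was at 0.10 after quantile normalization and at 0.0065 with the erythroid covariate, and the cardiomyocyte covariate put mt-Nd5 at -0.63 and mt-Nd6 at -0.82, the latter with an unadjusted p under 0.05 (adjusted p = 0.999 by limma). mt-Nd6 was also set against the summed FPKM of the 6 members of the other strand. This log2 ratio was -3.27, -2.85 and -3.64 in Ctrl and -3.26, -3.35 and -3.09 in cKO, with all cKO values inside the control range (difference 0.02, exact permutation p = 0.9, two-sided). The difference was 0.22 without Ctrl replicate 2 and -0.17 without Ctrl replicate 3.

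**Figure D2:**
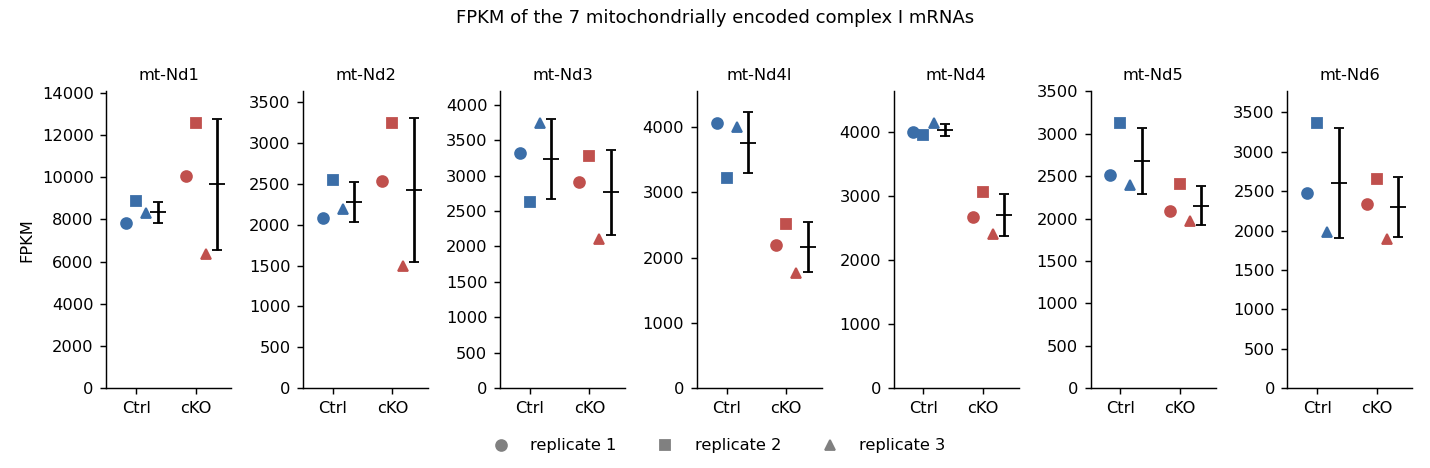
FPKM of each mRNA in the 3 Ctrl (blue) and 3 cKO (red) libraries, with the marker shape giving the replicate and the black bar the mean ± SD of the group. The groups are separate for mt-Nd4l and mt-Nd4 and overlap for the other 5.

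The scatter among cKO libraries was shared by all 7 mRNAs. Each was highest in cKO replicate 2, next in replicate 1 and lowest in the library labelled cKO replicate 3. The erythroid shares of these libraries were 10.8%, 23.5% and 22.0% in the same order, and their part in this scatter was not tested. The summed FPKM of the members was 26298, 27692 and 26751 in Ctrl and 24786, 29734 and 18007 in cKO, so that the cKO libraries lay on both sides of the controls (log2 difference -0.18, exact permutation p = 0.6, two-sided). The log2 difference was 0.01 without the library labelled cKO replicate 3 and -0.35 without cKO replicate 2, 0.064 with the erythroid covariate and -0.47 with the cardiomyocyte covariate. Leaving out mt-Nd1, a choice made after its values were seen, the sum was 18447, 18838 and 18446 in Ctrl and 14729, 17159 and 11631 in cKO. In that sum each cKO library was below each control, whereas as a share of mitochondrial mRNA the same mRNAs overlapped, at 25.7%, 28.1% and 26.2% in Ctrl and 26.8%, 26.8% and 25.5% in cKO.

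Per length, mt-Nd1 was the highest of the members in all 6 libraries and made up 29.9% to 42.3% of their summed FPKM. It was the single member whose range was separate from that of the next in order in both groups. Below it the controls ran mt-Nd4, mt-Nd4l, mt-Nd3, mt-Nd5, mt-Nd6 and mt-Nd2 by mean FPKM, with ranges that overlapped at each step. In cKO the order was mt-Nd3, mt-Nd4, mt-Nd2, mt-Nd6, mt-Nd4l and mt-Nd5, again with overlap at each step. mt-Nd4l ranked at places 2, 4 and 3 of 7 in the controls and at place 6 in each cKO library. How FPKM were corrected for fragment length is not given in the sources used here, which bears most on comparing the short mt-Nd4l and mt-Nd3 with the longer mRNAs.

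Expressed as a share of the summed FPKM of all 13 mitochondrial mRNAs, the values no longer depend on how libraries were scaled. Over the library as a whole, the 13 mRNAs made up 15.8%, 14.3% and 15.0% of FPKM in Ctrl and 10.7%, 14.0% and 9.0% in cKO, and they were lowest in the 2 libraries with the highest erythroid shares. Complex I mRNAs made up 36.6%, 41.2% and 38.0% of mitochondrial mRNA in Ctrl and 45.1%, 46.5% and 39.6% in cKO. The means were 38.6% ± 2.40 and 43.7% ± 3.68 (SD, n = 3 each), and the library labelled cKO replicate 3 overlapped with the controls (exact permutation p = 0.2, two-sided; difference 5.11 percentage points, 7.20 without that library and 3.71 without cKO replicate 2).

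Within that share the members differed in direction. mt-Nd1 took 10.9%, 13.2% and 11.8% of mitochondrial mRNA in Ctrl and 18.3%, 19.7% and 14.0% in cKO, above every control in all 3 cKO libraries. mt-Nd4l took 5.65%, 4.80% and 5.67% in Ctrl and 4.0%, 3.94% and 3.87% in cKO, below every control with little spread. mt-Nd4 took 5.56%, 5.88% and 5.87% in Ctrl and 4.84%, 4.78% and 5.28% in cKO, also below every control. For each of these 3 the exact permutation p was 0.1 (two-sided), the smallest that 3 against 3 libraries allow. The differences were 5.36, -1.44 and -0.81 percentage points for mt-Nd1, mt-Nd4l and mt-Nd4, and 7.02, -1.40 and -0.96 without the library labelled cKO replicate 3. With each library left out in turn they ran from 4.18 to 7.02, from -1.72 to -1.29 and from -0.96 to -0.71. With FPKM weighted by transcript length the differences were 5.21, -0.51 and -1.45 percentage points, so that mt-Nd4 exceeded mt-Nd4l in size.

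The shares of the other 4 members overlapped between the groups. mt-Nd2 had a mean share of 3.27% in Ctrl and 4.33% in cKO (exact permutation p = 0.2, two-sided), a difference of 1.06 percentage points that was 0.68 without cKO replicate 2. For mt-Nd3, mt-Nd5 and mt-Nd6 the means differed by 0.40, 0.11 and 0.43 percentage points, with exact permutation p between 0.7 and 0.8. Leaving out single libraries moved these differences widely, to between 0.049 (without Ctrl replicate 2) and 0.75 (without Ctrl replicate 3) for mt-Nd3. They ran from -0.12 (without Ctrl replicate 3) to 0.51 (without Ctrl replicate 2) for mt-Nd5 and from -0.038 to 1.06 without the same libraries for mt-Nd6. Because shares add up to a constant, a higher share of mt-Nd1 lowers the sum of all others. With mt-Nd1 taken out of the total, an alternative added after seeing the data, the share of mt-Nd4l was 5.52% to 6.43% in Ctrl and 4.5% to 4.91% in cKO. That of mt-Nd4 was 6.24% to 6.78% in Ctrl and 5.93% to 6.14% in cKO, and both remained without overlap.

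**Figure D3:**
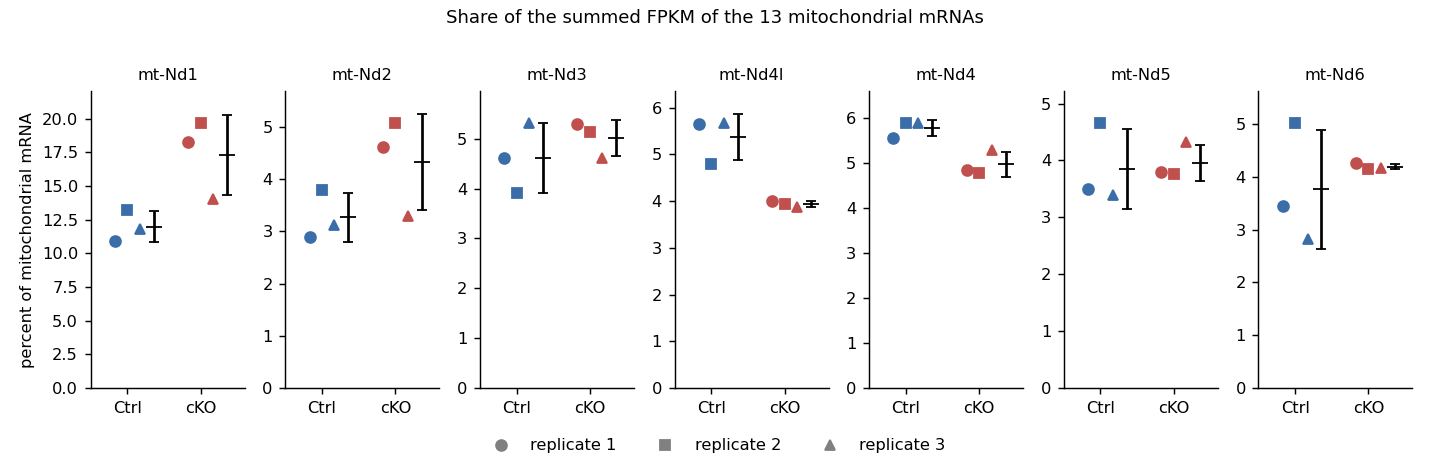
Each mRNA as percent of the summed FPKM of the 13 mitochondrial mRNAs in each library (blue, Ctrl; red, cKO; marker shape, replicate; black bar, mean ± SD). mt-Nd1 is higher in all 3 cKO libraries (14.0% to 19.7%, against 10.9% to 13.2%), mt-Nd4l and mt-Nd4 are lower, and the other 4 overlap.

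Ratios between members, which also do not depend on scaling, were compared pair by pair. Of the 21 pairs, 6 had log2 ratios that did not overlap between the groups. Among single genes tested, 20.8% did not overlap in either direction, and no such share was derived over pairs of genes. mt-Nd4l was part of 4 of these pairs. The ratios of mt-Nd1, mt-Nd2 and mt-Nd3 to mt-Nd4l were higher in cKO by 0.97, 0.83 and 0.57 on the log2 scale. That of mt-Nd4l to mt-Nd6 differed by -0.64 but was barely separate, with a lowest Ctrl value of -0.064 and a highest cKO value of -0.074. mt-Nd1 was part of 3, with ratios to mt-Nd4 and to mt-Nd2 that were higher by 0.74 and 0.13. The pair ratios share members and are given as a description. mt-Nd5 was in none of the 6 pairs.

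Along mitochondrial DNA, the members did not all resemble the 6 mRNAs of complexes III to V. mt-Co1, mt-Co2, mt-Atp8, mt-Atp6, mt-Co3 and mt-Cytb, which encode subunits of cytochrome oxidase, ATP synthase and the cytochrome bc1 complex, were lower without overlap in 6 of 6, with log2 fold changes between -0.63 and -0.30 and a median of -0.53, where 13% of all genes tested were lower without overlap. An unadjusted p under 0.05 by limma was reached by 5 of the 6, mt-Co1 being the exception, beside 9.43% lower among all genes tested, and by 0 after adjustment. mt-Nd4 lay inside this range at -0.58 and mt-Nd4l below it at -0.81, whereas mt-Nd1, mt-Nd2, mt-Nd3 and mt-Nd6 lay above it and mt-Nd5 near its upper end at -0.31. As a set, complex I mRNAs against all mitochondrial mRNAs gave the share described above, whose groups overlapped. The members with a nuclear copy of over 99% identity, mt-Nd3, mt-Nd4l and mt-Nd4, had log2 fold changes of -0.23, -0.81 and -0.58, and those without, mt-Nd1, mt-Nd2, mt-Nd5 and mt-Nd6, of 0.16, 0.03, -0.31 and -0.16. Of the other mRNAs, mt-Co2, mt-Atp6 and mt-Co3 also had such a copy and were at -0.50, -0.63 and -0.56. mt-Co1, mt-Atp8 and mt-Cytb had none among the transcripts searched and were at -0.30, -0.60 and -0.46. The part of the copies in these differences was not tested.

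**Figure D4:**
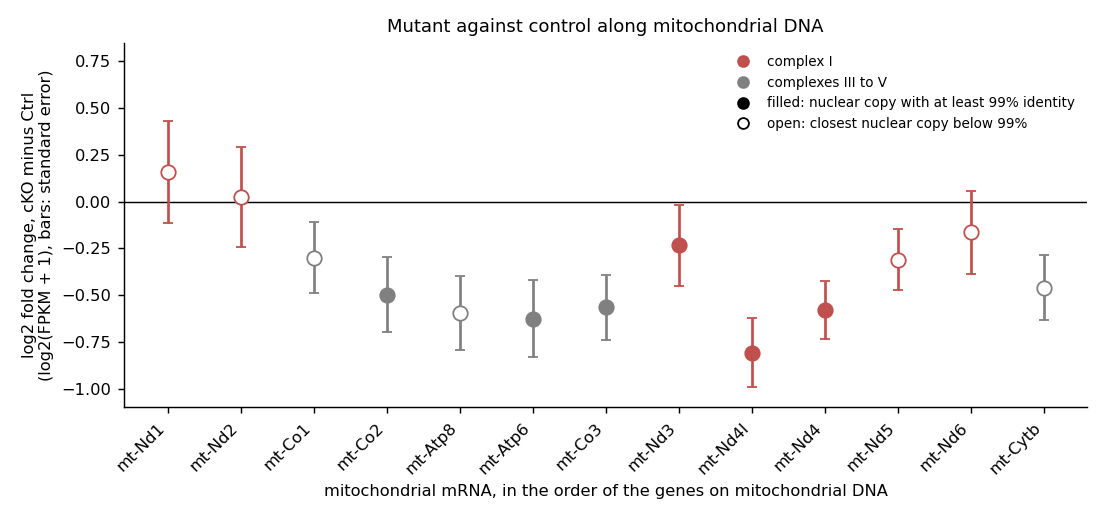
Log2 fold change (cKO minus Ctrl, log2(FPKM + 1), bars ± 1 SE of limma) of the 13 mitochondrial mRNAs in gene order, with complex I in red and complexes III to V in grey, filled where a nuclear copy has at least 99% identity. mt-Nd1 and mt-Nd2 lie at 0.16 and 0.03, and the lowest values are those of mt-Nd4l and mt-Atp6.

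The nuclear genes for the rest of complex I gave the members a reference within the enzyme. Of 37 subunit genes listed, 36 were in the table, 27 were lower and 9 higher, with a median log2 fold change of -0.08. An unadjusted p under 0.05 by limma was reached by 7, all lower, beside 9.43% lower among all genes tested, and by 0 after adjustment. Their number was 2 without Ctrl replicate 3, 4 without cKO replicate 1, 3 with the erythroid covariate and 2 with the cardiomyocyte covariate. Under these settings the calls among all 13260 genes, 1990 as reported in either direction, also fell, to 1566, 1509, 1471 and 475. Ndufb3, an accessory subunit of the membrane arm, had the smallest p, at 59.8 ± 1.73 FPKM in Ctrl and 47.7 ± 2.84 in cKO (log2 fold change -0.32, SE 0.08, adjusted p = 0.161 by limma). Ndufa5, an accessory subunit of the matrix arm, came next at 96.3 and 76.7 FPKM (log2 fold change -0.33, adjusted p = 0.172 by limma). Ndufs3 was listed at 0 in 1 Ctrl and 1 cKO library. The log2 ratio of summed mitochondrial to summed nuclear subunit FPKM was 3.28, 3.34 and 3.18 in Ctrl and 3.24, 3.54 and 2.74 in cKO, with overlap. Among 16 assembly factors in the table, which build the enzyme from its modules, 14 were lower and 1 of these had an unadjusted p under 0.05, beside 9.43% lower among all genes tested, Ndufaf5 (log2 fold change -0.21, adjusted p = 0.298 by limma).

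Genes that make, process or stabilise mitochondrial RNA showed a median log2 fold change of -0.01 over 29 genes, with an unadjusted p under 0.05 for 2, both higher, beside 5.57% higher among all genes tested, and for 0 after adjustment by limma. Rexo2, an oligoribonuclease that degrades very short RNAs, was at 26 ± 1.93 FPKM in Ctrl and 33.6 ± 1.84 in cKO (log2 fold change 0.36, SE 0.09, adjusted p = 0.157 by limma). Lrpprc, which stabilises mitochondrial mRNAs, was at 28.4, 32.5 and 28.9 FPKM in Ctrl and 34.7, 39.4 and 36.7 in cKO, without overlap (log2 fold change 0.29, adjusted p = 0.207 by limma). Its partner Slirp did not share this difference, with a log2 fold change of -0.07 and overlapping groups. Polrmt, the mitochondrial RNA polymerase, Tfam, which packages mitochondrial DNA and helps to start transcription, and Grsf1, of the mitochondrial RNA granules, had log2 fold changes of -0.01, -0.07 and 0.04. Fastk, whose mitochondrial form is required for mt-Nd6 mRNA, was at 0.09, with overlapping groups.

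**Figure D5:**
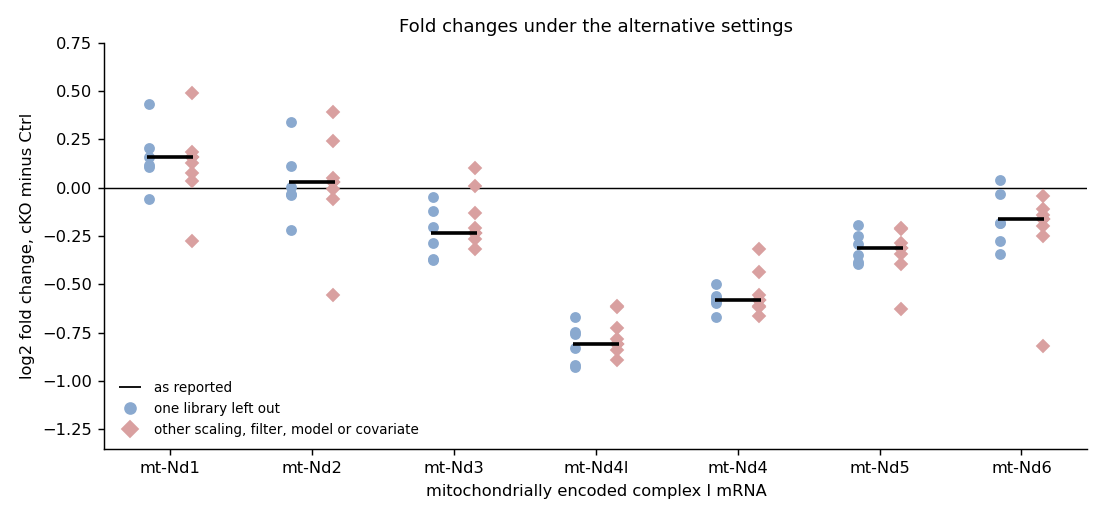
Log2 fold change of each mRNA as reported (black line), with 1 library left out (blue circles) and under the other scalings, filters, models and covariates (red diamonds). mt-Nd4l, mt-Nd4 and mt-Nd5 keep a negative sign in all 17 alternatives, while mt-Nd1, mt-Nd2, mt-Nd3 and mt-Nd6 change sign in at least 1.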

How the data were processed

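Per the labels, total RNA of embryonic hearts was depleted of rRNA and sequenced from directional libraries. The methods of the study describe poly-T selection for RNA of ventricular tissue, and the labels were followed here. The authors deposited FPKM per transcript for 3 Ctrl and 3 cKO libraries (60776 rows). The submitters' processing notes name HISAT2, Bowtie2 2.2.8, StringTie 1.3.1, Cuffdiff 2.1.1 and build mm9 without their roles. How reads that map to several places were counted is not given in the sources used here. Mitochondrial rRNA and tRNA were not analysed here. FPKM were summed per gene. Genes with at least 1 FPKM in at least 3 of 6 libraries (13260) were tested as log2(FPKM + 1) with limma 3.58.1 in R 4.3.3 (trend, two-sided, Benjamini-Hochberg over all genes), so fold changes of low genes are understated. Single values per library were compared by exact permutation tests (scipy 1.17.1). The limma step was tested on simulated data. P-values by limma rest on the variation between these pooled samples, moderated over all genes tested. Variation between single animals was not seen, and no depth could be derived. Sequences and positions are from GENCODE M21 (GRCm38), with nuclear copies sought by blastn 2.17.0. The alternatives were other scalings, pseudocounts, filters, covariates (mean log2 level of erythroid or cardiomyocyte genes), a replicate block and leaving out each library. The text names the members, Mrps5, the other mitochondrial mRNAs, up to 4 genes of each list with the smallest p, chosen regulators of mitochondrial RNA and the 5 nuclear genes most correlated with the members. Members and lists were chosen with earlier results of these data known.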

Additional observations from a re-analysis of the deposited data

How the results depend on the processing

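mt-Nd4l and mt-Nd4 kept a negative log2 fold change in all 17 alternatives (-0.93 to -0.61 and -0.67 to -0.32, with adjusted p by limma from 0.0516 to 0.999 and from 0.0872 to 0.999), and no member had an adjusted p under 0.05 in any of them. The count of members with an unadjusted p under 0.05, 2 as reported, was 1 with no filter on low values (mt-Nd4l) and 1 with the cardiomyocyte covariate, where mt-Nd4l and mt-Nd4 both missed it and mt-Nd6 passed. It was 3, with mt-Nd5 added, with the same sum, with no trend and without cKO replicate 2, and 2 to 3 with 1 library left out. The 7 nuclear subunit genes became 3 with the erythroid and 2 with the cardiomyocyte covariate, and 2 to 7 with 1 library left out (2 without Ctrl replicate 3 and 4 without cKO replicate 1). Calls among all genes, 1990 as reported, also fell, to 1471 and 475 with these covariates. With the cardiomyocyte covariate mt-Nd1 was at -0.27, mt-Nd2 at -0.55, mt-Nd5 at -0.63, mt-Nd6 at -0.82 and the summed mRNA at -0.47. The level used as this covariate did not overlap between the groups. With the erythroid covariate mt-Nd1 was at 0.49, mt-Nd2 at 0.39, mt-Nd5 at -0.21, mt-Nd6 at -0.044 and the summed mRNA at 0.064. mt-Nd2 was at -0.057 with libraries scaled to the same sum, which moved the median of all genes from -0.02 to -0.09, and at -0.0063 with erythroid and mitochondrial genes left out of the scaling. mt-Nd3 was at 0.10 after quantile normalization and 0.0065 with the erythroid covariate. Leaving out 1 library gave -0.056 to 0.43 for mt-Nd1, -0.22 to 0.34 for mt-Nd2 (-0.03 without Ctrl replicate 1, -0.04 without cKO replicate 1) and -0.34 to 0.038 for mt-Nd6 (0.038 without Ctrl replicate 2). The cause of these shifts was not tested. Weighting FPKM by transcript length moved the share differences of mt-Nd4l and mt-Nd4 to -0.51 and -1.45 percentage points. Of all genes, 11 passed an adjusted p of 0.05 as reported, 111 with the same sum, 121 without cKO replicate 2, 270 without the library labelled cKO replicate 3, 4 with the replicate block, 6 with no filter, with no trend and with the erythroid covariate, 0 with the cardiomyocyte covariate and 5 to 7 without the other single libraries. Scaling to the same sum also moved the calls at an unadjusted p under 0.05 from 739 higher and 1251 lower to 365 and 1627. Same-numbered Ctrl and cKO libraries had correlations of their deviations of 0.22, 0.11 and 0.09, each the highest for its number, and the labels name no shared litter for a number. With the replicate block 2 members had an unadjusted p under 0.05, and mt-Nd4l and mt-Nd4 had adjusted p = 0.168 and 0.201 by limma. A denominator with mitochondrial rRNA was not run, since those rows were not in the table used here. Depth is unknown, so no counting error could be given.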

Other observations

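The nuclear genes whose log2(FPKM + 1) followed the mean of the 7 members most closely over the 6 libraries were Ptgs1 (Pearson r = 0.996), Invs (0.993), the unannotated locus XLOC_004378 (0.990), Gm43054 (0.989) and AW549877 (0.988). Ptgs1, which encodes a cyclooxygenase, was at 6.02, 6.04 and 5.91 FPKM in Ctrl and 5.46, 6.07 and 4.53 FPKM in cKO, with the same order of cKO libraries as the members. These are the highest of many correlations over 6 points that share library and scaling, and they are given as a description.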
